A study of Mus musculus with 96 samples.

Results

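Receptor tyrosine kinases are cell surface receptors with an extracellular part that binds a ligand and an intracellular part that phosphorylates tyrosines. Ligand binding joins receptors into pairs or larger groups, and the phosphorylated tails recruit adaptors that feed the Ras-MAPK, PI3K-AKT, PLCγ and STAT branches. Fibroblasts are known for their response to platelet-derived growth factor (PDGF), epidermal growth factor (EGF) and insulin-like growth factor (IGF), and Ddr2 differs from the others in that its ligand is fibrillar collagen. The 8 genes described here are Pdgfra, Pdgfrb, Egfr, Axl, Met, Igf1r, Kit and Ddr2. They were found by symbol and are 8 of the 21711 gene rows of the table, and all 8 had reads in both cell types.

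The cells came from 1 plate processed by STRT (tagged reverse transcription of single cells), in which each read marks where a transcript begins and from which strand. The plate carried 48 R1 embryonic stem (ES) cells, which are pluripotent mouse cells, 44 embryonic fibroblasts of the mouse (MEFs) and 4 wells as negative controls, with no treatment or genotype difference named. MEFs were grown in DMEM with serum, and ES cells in their own culture. Neither cell type has a second culture in the labels, the strain and age of the embryos are not stated, and the labels also give R1 as the source line of the MEF wells. With 1 culture per type, cells are not replicates. Differences are therefore given by size, with no p-value. The 95% intervals treat reads, or cells for shares, as independent counts. They leave out read copies of 1 molecule and variation between cultures, and those of pooled levels also leave out variation between cells.

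The 45 ES cells kept had at least 10000 gene reads and a median of 161206 (range 13576 to 703423). The 44 MEFs had a median of 851801 (63938 to 1883709). Levels are counts-per-million of gene reads (CPM), pooled over the cells of a type unless a cell is named. Median spike-in reads were 27100 per ES cell and 4730 per MEF, so CPM compares the makeup of the RNA and not its amount. Marker genes followed the labels, as 8 ES cell markers summed to 7743 CPM in ES cells against 27.5 in MEFs. The 10 fibroblast markers summed to 1747 and 25147 CPM. Nanog was at 0 in MEFs. Plate side and cell type cannot be told apart, since ES cells and MEFs lay on opposite sides, while each of the 8 plate rows held both.

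Since STRT reads transcripts from the 5′ end, the bases before the start sites are shown first. The RefSeq table (GRCm38.p6) matched 7 of the 8 genes and lacked Pdgfrb. The 3 stretches below are the 150 bases before the RefSeq start of the most and the least CpG-rich of the 7 and of the gene with the highest MEF level. CpG dinucleotides are in capitals.
Igf1r: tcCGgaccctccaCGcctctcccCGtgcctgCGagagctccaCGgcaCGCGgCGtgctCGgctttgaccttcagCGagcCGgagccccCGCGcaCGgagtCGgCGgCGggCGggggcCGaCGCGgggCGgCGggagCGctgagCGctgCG
Axl: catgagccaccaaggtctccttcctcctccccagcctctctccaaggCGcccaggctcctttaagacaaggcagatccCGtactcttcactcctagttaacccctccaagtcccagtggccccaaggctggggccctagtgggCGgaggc
Ddr2: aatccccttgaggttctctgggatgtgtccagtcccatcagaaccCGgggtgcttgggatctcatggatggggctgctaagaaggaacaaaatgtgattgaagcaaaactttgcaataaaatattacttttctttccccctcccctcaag

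The Igf1r stretch is chr7:67952107-67952256 on the plus strand, that of Axl chr7:25788734-25788883 on the minus strand and that of Ddr2 chr1:170088945-170089094 on the minus strand. RefSeq starts are not always the GENCODE starts. That of Ddr2 lies inside the longer GENCODE gene, and for Kit and Met the bases before the RefSeq start run into the GENCODE gene. The Igf1r stretch ends at 67952256, well short of the GENCODE start at 67952827, so its CpG count is for bases farther upstream of that start. Axl and Pdgfra had smaller gaps of this kind. Over the 250 bases upstream, Igf1r held 42 CpGs, more than 99.1% of the 32851 promoters in the table, whose median was 6. Met held 24, Kit 17, Egfr 11, Axl 5, Pdgfra 4 and Ddr2 1, which only 7.87% of promoters undercut. CpG content did not sort the genes by cell type: Igf1r and Ddr2 were both higher in MEFs by a similar ratio. On either strand, the letters GGGCGG (GC box) stood upstream of Kit, Met, Axl, Igf1r and Egfr and in 32.7% of all promoters, and TGANTCA (AP-1) upstream of Met alone and in 6.75%. These are letter matches only.

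Of the 8 receptors, 7 exceeded their ES level by 2-fold or more in MEFs, and Kit exceeded its MEF level by as much in ES cells. Among the 12818 genes with at least 20 reads, 58.5% passed that 2-fold line on the MEF side and 15.4% on the ES side, so the count of 7 stands against a majority of all genes. The median gene with at least 100 reads was itself higher in MEFs by 1.54 on the log2 scale. Relative to that median gene, 7 receptors were at least 2-fold above it against a background of 32.5% of genes, and Kit was below it against 33.8%. The median of the 8 relative log2 ratios was 2.37.

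**Figure D1:**
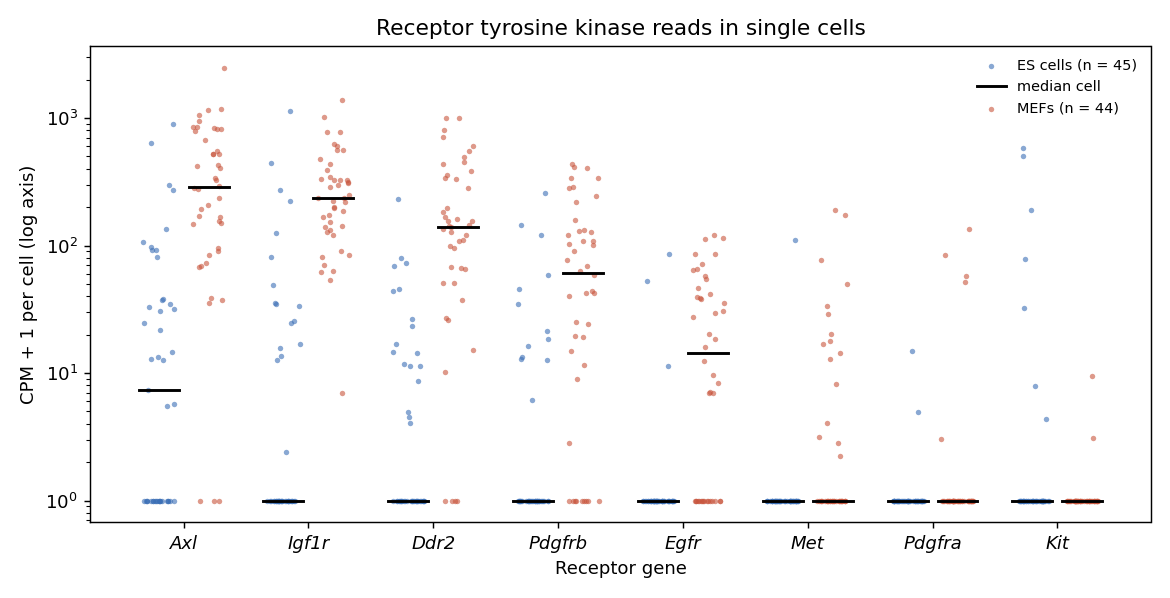
Each point is the level of a receptor in 1 cell, as CPM plus 1 on a log axis, for 45 ES cells and 44 MEFs, and bars mark the median cell. Axl, Igf1r, Ddr2, Pdgfrb and Egfr have a median above 0 in MEFs, and Met, Pdgfra and Kit were read in a minority of cells of either type.

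Axl, the receptor for Gas6 and protein S and a relative of Tyro3 and Mertk, had the highest level of the 8 in MEFs. Single MEFs ranged from 0 to 2490 CPM with a median of 289, and ES cells from 0 to 899 with a median of 6.35. The ranges overlapped, since 3 of 44 MEFs had no read and 25 of 45 ES cells had at least 1. Pooled, Axl stood at 424 CPM in MEFs and 26.5 in ES cells, a ratio of 16.02 (interval 14.1 to 18.3). With the mean of the negative control wells subtracted from each well, the log2 ratio was 5.12 in place of 4.00. The average ES well lay below that mean, so the 5.12 rests only on the ES wells above it. The pooled ES level of Axl thus could not be told from background. MEFs were higher in 8 of 8 plate rows. Axl was also read in 3 of the 4 negative control wells, with 0, 7, 16 and 4 reads, a mean of 6.75 per well. ES wells averaged 5.13 reads, below that background, and MEF wells 339. More than 16 reads were found in 3 ES wells and 40 MEF wells, and the other 42 ES wells lay at or under the highest negative control well.

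Igf1r, the receptor for IGF1 and IGF2, was the one member read in every MEF, which 323 of the 21711 gene rows (1.49%) shared. MEFs ranged from 6.03 to 1380 CPM with a median of 236, and ES cells from 0 to 1139 with a median of 0. ES replicates 2, 8 and 4, at 1139, 442 and 272 CPM, lay above the MEF median, while most ES cells had no read. Those 3 values rest on only 19, 6 and 15 reads, near the negative control reads given below. The pooled levels were 292 and 22.2 CPM, a ratio of 13.1 (11.4 to 15.2), with MEFs higher in 8 of 8 plate rows. One negative control well held 12 reads and the others 0. That mean of 3 reads per well compares with 4.31 per ES well and 233 per MEF well, and 7 ES wells and 42 MEF wells exceeded 12 reads.

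Ddr2, the fibrillar collagen receptor, ranged from 0 to 1007.5 CPM in MEFs with a median of 140, and from 0 to 230.04 in ES cells with a median of 0. It was read in 40 of 44 MEFs and 18 of 45 ES cells, and in no negative control well. Pooled levels of 234 and 17.3 CPM gave a ratio of 13.5 (11.5 to 16.01), and MEFs were higher in 8 of 8 plate rows. ES replicate 41 alone held 45.03% of the ES reads. Without the cell with the most reads in each type, the log2 ratio was 4.44 in place of 3.76.

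The PDGF receptors differed from each other in how many MEFs carried them. Pdgfrb, which binds PDGF-BB and PDGF-DD, ranged from 0 to 436 CPM in MEFs with a median of 60.3 and was read in 35 of 44 cells. In ES cells it ranged from 0 to 256 with a median of 0 and was read in 13 of 45. The pooled ratio was 14.4 (11.3 to 18.7), from 106 and 7.34 CPM, again with MEFs higher in 8 of 8 plate rows. Pdgfra, which binds PDGF-AA among other ligands and marks many mesenchymal cells of the embryo, was read in 5 of 44 MEFs only.

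In those 5 MEFs Pdgfra had 55, 50, 51, 167 and 3 reads, or 50.4, 57.2, 83.3, 134 and 2.04 CPM, and the other 39 MEFs had none. The cells were replicates 56, 72 and 88 in plate row H, 90 in row B and 92 in row D. Replicate 90 held 51.2% of the reads. Pooled, Pdgfra stood at 9.27 CPM in MEFs and 0.573 in ES cells, from 326 and 5 reads, and the ratio was 16.2 (6.86 to 50.1). MEFs were higher in 2 plate rows, ES cells in 2, and neither type had a read in the other 4, so the pooled ratio of Pdgfra did not hold across the plate. With every cell thinned to 20000 gene reads, 1 MEF and no ES cell retained a Pdgfra read, which is too few for a ratio. All 5 Pdgfra-read MEFs also had Pdgfrb reads, but so did 35 of all 44 MEFs, so an overlap of this size says little.

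Egfr, the EGF receptor, was read in 28 of 44 MEFs, from 0 to 120.5 CPM with a median of 13.3, and in 3 of 45 ES cells. The 3 ES cells had 13, 3 and 2 reads. ES replicate 11 held 72.2% of the ES reads. Pooled levels were 32.5 and 2.06 CPM, a ratio of 15.8 (9.93 to 26.7). The log2 ratio of 3.98 was 5.66 without the cell with the most reads in each type, 3.003 in plate rows A to D and 6.32 in rows E to H. MEFs were higher in 8 of 8 plate rows. Its level was the most even of the members over plate rows, with row values of 27.4 to 41.9 CPM in MEFs.

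Met, the receptor for hepatocyte growth factor, was read in 16 of 44 MEFs, from 0 to 189 CPM with a median of 0. Of the ES cells, only replicate 30 had reads, and it had 2. The pooled ratio of 48.99 therefore has an interval of 13.5 to 406. MEFs were higher in 7 plate rows, and row H had no Met read in either type. Replicate 52 held 22.5% of the MEF reads of Met. Of the 16 Met-read MEFs, 13 also had Egfr reads, against 28 of all 44 MEFs.

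Kit, the receptor for stem cell factor (Kitl), ran the other way. It was read in 7 of 45 ES cells, with 112, 75, 48, 19, 11, 2 and 1 reads, and in 2 of 44 MEFs, with 7 and 4 reads. Replicates 14 and 1 reached 582 and 501 CPM, and replicates 22 and 41 had under 7. Pooled, Kit stood at 30.7 CPM in ES cells and 0.313 in MEFs, 98.2-fold higher in ES cells (54.02 to 199), with ES cells higher in 5 plate rows and no Kit read in the other 3. Replicate 14 held 41.8% of the ES reads. All 7 Kit-read ES cells also had reads of Pou5f1, the pluripotency factor Oct4, from 20 in replicate 1 to 574 in replicate 47. Since 42 of the 45 ES cells carried Pou5f1 reads, that overlap was nearly fixed in advance. Among the 44 MEFs, 17 carried Pou5f1 reads too. In the 7 cells Pou5f1 ran from 134 CPM in replicate 1 to 1431 in replicate 11, against a pooled ES level of 731. Mast cells and melanocytes are the usual Kit-bearing types outside the germ line and blood, and Cpa3, Fcer1a, Mcpt4, Dct and Tyrp1 were at 0 in both types. Of that list of 8 only Si (Pmel) passed 20 reads, with 98 reads in 4 ES cells and 6 in 1 MEF.

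**Figure D2:**
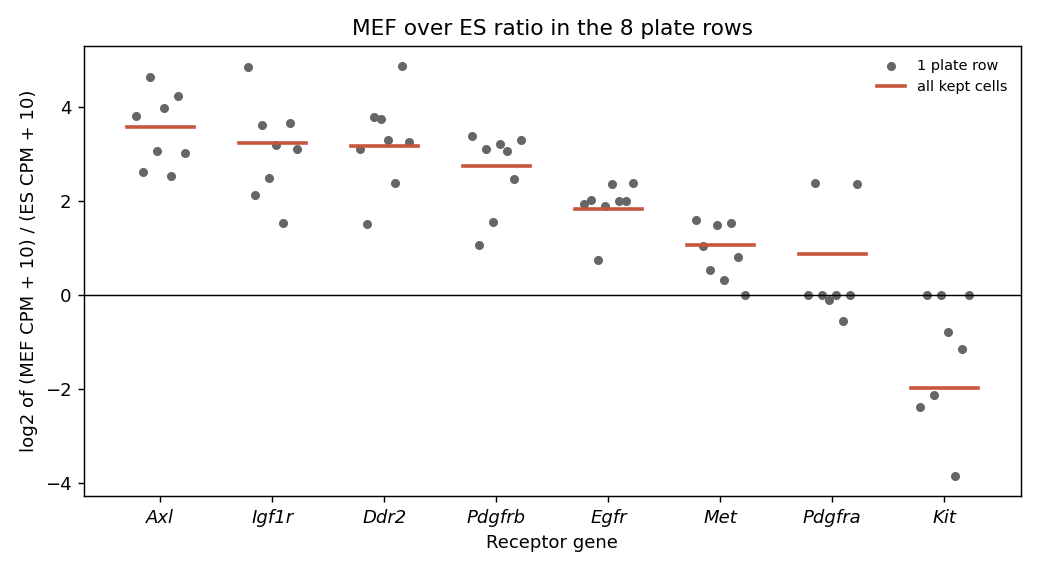
Each point is the log2 ratio of MEF over ES level in 1 of the 8 plate rows, with 10 CPM added to both, and the bar is the ratio over all kept cells. All points of Axl, Igf1r, Ddr2, Pdgfrb and Egfr lie above 0, while Pdgfra is above 0 in 2 rows and Kit is never above 0.

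On that damped scale the SD over plate rows ranged from 0.51 for Egfr to 1.40 for Kit. The ratios of Axl (3.57), Igf1r (3.23), Ddr2 (3.16), Pdgfrb (2.74) and Egfr (1.82) exceeded their row SDs of 0.79, 1.03, 1.00, 0.88 and 0.51. Met (1.05, SD 0.60) and Kit (-1.98, SD 1.40) did so by less, and Pdgfra (0.87, SD 1.17) did not. The row SD holds no culture-to-culture variation.

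MEFs had more reads than ES cells, so detection was also compared at 20000 gene reads per cell, which kept 42 ES cells and all 44 MEFs. Axl was then read in 93.2% of MEFs (exact binomial interval 81.3 to 98.6) and 28.6% of ES cells (15.7 to 44.6). Igf1r was read in 90.9% and 21.4%, Ddr2 in 75% and 16.7%, Pdgfrb in 52.3% and 11.9%, and Egfr in 34.1% and 2.38%. Met was read in 11.4% of MEFs (3.79 to 24.6) and 0 of 42 ES cells, and Pdgfra in 2.27% and 0 of 42. The intervals treat cells of 1 culture as independent, so their overlap or lack of it does not test the types. Kit was read in 11.9% of ES cells (3.98 to 25.6) and 0 of 44 MEFs, for which the exact interval reaches 8.04%. Without thinning, the shares were 55.6% of ES cells and 93.2% of MEFs for Axl, 37.8% of ES cells and every MEF for Igf1r, and 15.6% and 4.55% for Kit.

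**Figure D3:**
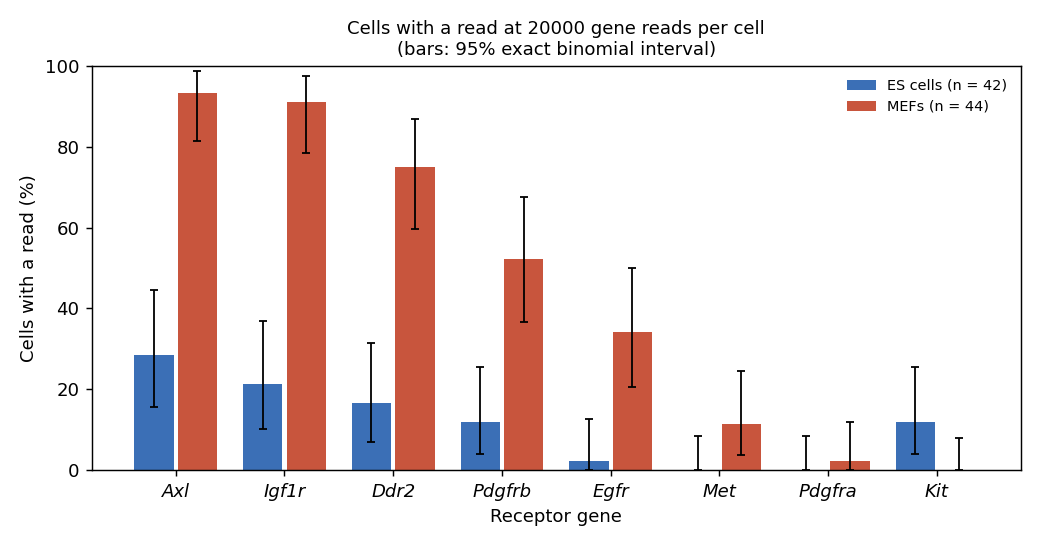
Bars show the percent of cells with at least 1 read of each receptor after thinning to 20000 gene reads, in 42 ES cells and 44 MEFs, with 95% exact binomial intervals. The shares in MEFs run from 93.2% for Axl to 0 for Kit, and Kit is the receptor with the higher bar in ES cells.

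The ratios of Axl, Igf1r, Ddr2, Pdgfrb, Egfr and Pdgfra lay between 13.1 and 16.2 in the pooled counts. Their log2 ratios of 3.71 to 4.02 spread to 2.49 (Igf1r) to 4.23 (Pdgfra) by the mean of per-cell CPM, and to 3.88 (Igf1r) to 5.66 (Egfr) without the cell with the most reads in each type. The summed level of the 10 fibroblast markers was 14.4-fold higher in MEFs than in ES cells, and Col1a2 was read in 42 of 45 ES wells. Set against those marker reads, the 7 MEF-side receptors gave 44.1 reads per 1000 marker reads in MEFs (43.7 to 44.6) and 43.6 in ES wells (40.4 to 47.1). Pdgfrb stood at 4.2 in both types, Ddr2 at 9.32 and 9.91, Igf1r at 11.6 and 12.7, Axl at 16.9 and 15.2, and Egfr at 1.29 and 1.18. In each of these 5 the MEF value lay within the interval of the ES value. Kit stood apart, at 0.012 in MEFs and 17.6 in ES wells. The part of fibroblast RNA in the ES values was not tested.

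**Figure D4:**
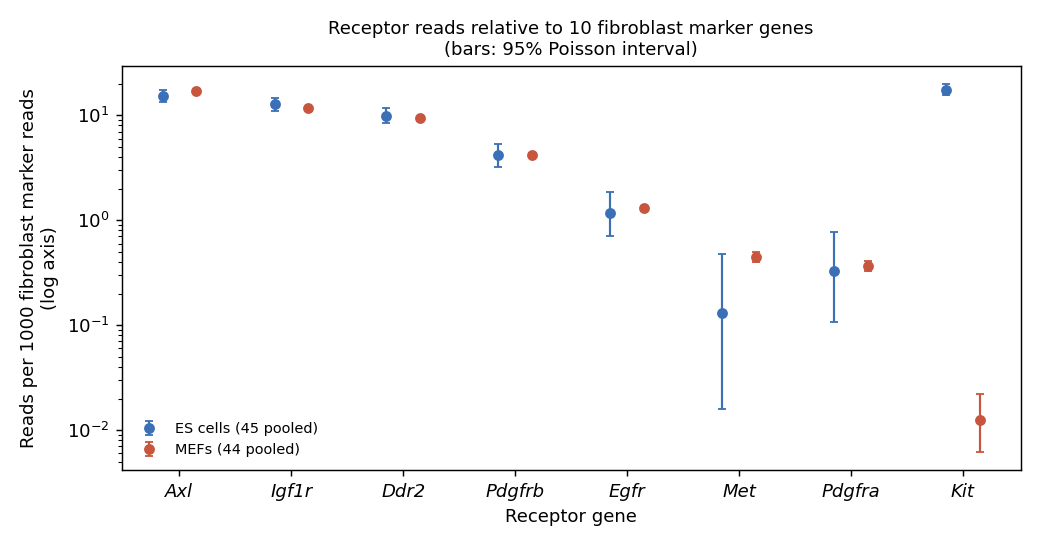
Points show receptor reads per 1000 reads of 10 fibroblast marker genes, on a log axis, pooled over 45 ES cells or 44 MEFs, with 95% Poisson intervals. The MEF point lies within the ES interval for each receptor except Kit, with Met near its upper end.

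Over the 45 ES wells, the summed CPM of the 7 receptors went with the summed CPM of the fibroblast markers (Pearson 0.76, Spearman 0.71 on log2 values with 10 CPM added, and Pearson 0.71 without the 2 wells farthest from the median marker level). The wells share 1 library and differ in depth, and 9 of the 45 had no read of the 7. ES replicates 4, 7 and 30 had profiles nearer the MEF mean. Without them the 7 receptors stood at 45.8 reads per 1000 marker reads. Igf1r (13.5, 11.63 to 15.7) and Ddr2 (11.04, 9.324 to 12.99) then had ES intervals just above their MEF values of 11.62 and 9.322. The log2 ratios of the receptors other than Met and Kit then lay between 3.79 (Ddr2) and 4.19 (Pdgfrb), against 3.71 to 4.02 with them. Met had no ES read left, and its log2 ratio was at least 5.01 at a floor of 3 reads over the group. The negative control wells held 275 marker reads, 27 Axl reads and 12 Igf1r reads.

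In MEFs the order by CPM was Axl, Igf1r, Ddr2, Pdgfrb, Egfr, Met, Pdgfra and Kit. Single cells kept this order loosely: Axl exceeded Igf1r in 26 of 44 MEFs and 7 of 8 plate rows, and Igf1r exceeded Ddr2 in 27 cells and 6 rows. Ddr2 exceeded Pdgfrb, Pdgfrb exceeded Egfr and Egfr exceeded Met in 8 of 8 rows. Met exceeded Pdgfra in 15 cells and 6 rows and was lower in 5 cells and 2 rows, with the remaining cells at 0 for both. Per kilobase of transcript, Axl stood at 83.5 CPM, Ddr2 at 28.3, Igf1r at 24.4, Pdgfrb at 19.5 and Egfr at 5.05. Ddr2 and Igf1r thus changed places, but reads that mark transcript starts need not grow with length. In ES cells Kit came first by pooled CPM, yet Axl exceeded Kit in 25 of 45 cells and Kit exceeded Axl in 5.

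Variation between MEFs was lower for the abundant receptors than for most genes. The coefficient of variation (SD over mean of per-cell CPM) was 0.872 for Igf1r, 1.06 for Axl, 1.11 for Ddr2, 1.19 for Pdgfrb and 1.23 for Egfr. Over 10529 genes with at least 100 MEF reads the median was 1.98 and the lower quartile 1.37, a set that includes many sparser genes. Met (2.73) and Pdgfra (3.45) lay above the median.

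A MEF had reads of 5 of the 8 receptors at the median, from 2 in 3 cells to 7 in 1 cell. At 20000 reads per cell the number ran from 1 to 5. ES cells had 1 at the median, and 7 of the 45 had none. Egfr-read MEFs all had Igf1r, Axl and Ddr2 reads as well (28 of 28 for each), and 21 of them had Pdgfrb. Over all 44 MEFs, Igf1r was read in 44, Axl in 41, Ddr2 in 40 and Pdgfrb in 35. The overlap with Igf1r was thus fixed in advance, and that with Axl and Ddr2 nearly so. Levels of the 5 widely read receptors were weakly related over 44 MEFs, with Pearson correlations from -0.26 (Axl with Igf1r, and Pdgfrb with Egfr) to 0.22 (Egfr with Ddr2). At 20000 reads per cell the first pair stood at -0.32 and the second at -0.38. The cells share 1 library, and in sparse counts weak correlations of this kind are given as values only.

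The genes with a pattern over the 44 MEFs most like each receptor, by Pearson correlation of log2 CPM with 10 added among 5302 other genes read in at least 50% of MEFs, were Eif1a (0.63), Hs6st2 (0.51) and Jag1 (0.50) for Igf1r. For Axl they were Pmm1, Hspe1 and Tax1bp1, each at 0.60, and for Egfr Cdk16 (0.61), Ctxn1 (0.58) and Crtap (0.58). For Pdgfrb they were Cs (0.56), Zbtb41 (0.54) and Mtdh (0.53), and for Ddr2 Lrp1 (0.51), Rps14 (0.48) and 2310046O06Rik (0.48). These are the top of a long ranking, and some fell with equal depth: Eif1a to 0.29 and Mtdh to 0.18 at 20000 reads per cell.

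Among ligands of the 8 receptors, none of 16 measured genes passed 2-fold on the ES side, against 15.4% of all genes. On the MEF side 15 passed, against 58.5%. The median relative log2 ratio was 2.40, and Epgn, with 9 reads in 1 ES cell and 24 in 1 MEF, was the exception. The 3 with the greatest difference were Col1a1 (1709 CPM in MEFs, against 76.4) and Col1a2 (3627 and 199), chains of the collagen that Ddr2 binds, and Igf2 (855 and 60.5), a ligand of Igf1r. Other ligands are named here after their values were seen. Gas6, the ligand of Axl, stood at 253 CPM (MEFs) against 15.3 (ES cells) and was read in 40 of 44 MEFs. Kitl had 569 reads from 11 MEFs and 1 from an ES cell. Hgf, Egf, Areg and Btc were at 0 in both types, whereas the EGF-family ligand Hbegf stood at 289 CPM in MEFs and 27.1 in ES cells.

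**Figure D5:**
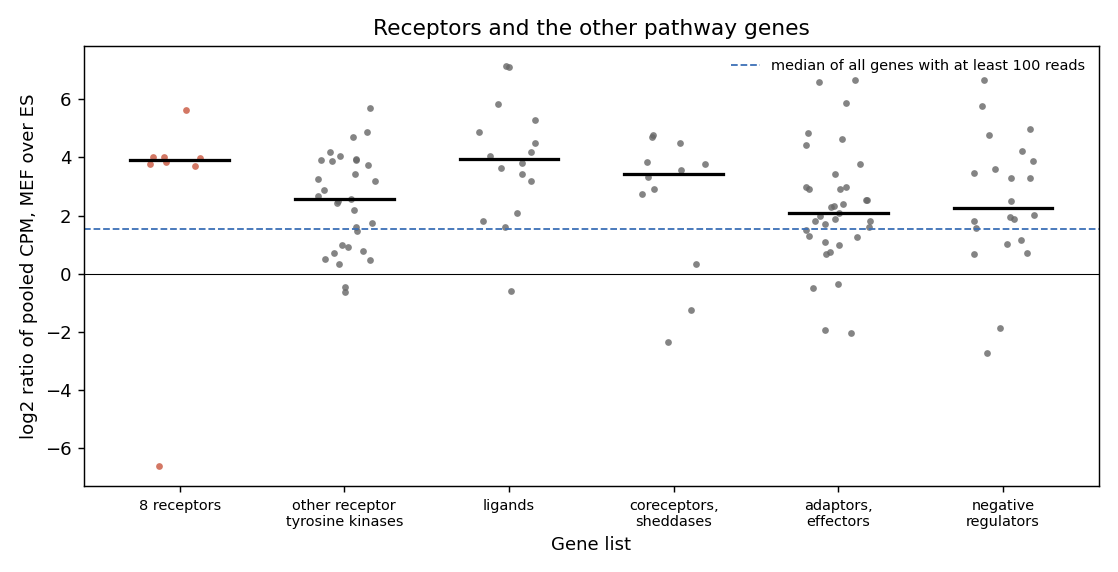
Each point is the log2 ratio of pooled CPM, MEF over ES, for 1 gene with at least 20 reads, black bars are list medians, and the dashed line is the median of all genes at 1.54. Genes with no ES read are drawn at a lower bound set by a floor of 3 reads, and the receptor near the bottom is Kit.

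Of 50 other receptor tyrosine kinases, 31 were measured. Of these, 22 passed 2-fold on the MEF side, against 58.5% of all genes, and none on the ES side, against 15.4%. Their median relative log2 ratio was 1.01, and 12 had no read in either type. The named 3 were Ptk7, a Wnt-pathway pseudokinase (146 CPM in MEFs, 15.8 in ES cells), Fgfr2 (98.8 and 3.78) and the insulin receptor Insr (50.04 and 4.70). Ptk7 had 9 reads over the 4 negative control wells and 138 over the 45 ES wells. Chosen after values were seen, Fgfr1 was near even (67.8 and 54.1 CPM), and Tyro3, the Axl relative, stood at 12.1 and 18.7. The collagen receptor Ddr1 stood at 56.2 and 9.86.

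Coreceptors and sheddases present ligands or cut receptors and ligands from the membrane. On the MEF side 9 of 12 passed 2-fold, and on the ES side 2, Nrp2 and Plxnb1. Their median relative log2 ratio was 1.90. For each list in this paragraph, the shares of all genes to compare were 58.5% on the MEF side and 15.4% on the ES side. Nrp1, a PDGF and semaphorin coreceptor, stood at 546 and 24.5 CPM in MEFs and ES cells, Cd44, a coreceptor of Met, at 537 and 20.6, and Lrp1, which binds Pdgfrb, at 337 and 12.3. Of 35 adaptors and effectors, 28 passed 2-fold on the MEF side and 2 on the ES side (Crkl and Plcg1), but the median relative log2 ratio was only 0.55. Grb2, the adaptor that links receptors to Sos, stood at 79.3 and 7.45 CPM, Akt1 at 227 and 10.7, and the ERK kinase Mapk3 at 122 and 16.3. Of 22 measured negative regulators, 18 were higher in MEFs and 2 in ES cells (Spred2 and Sh2b3), with a median of 0.71. The phosphatases Ptpn1 (126 and 12.96 CPM) and Ptpn12 (124 and 6.65) and the adaptor Grb10, which binds Igf1r (980 and 100.3), were the named 3.

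Markers of other cells that carry these receptors were given beside the lists. The 9 macrophage and blood markers summed to 2.79 CPM in MEFs (0 to 75.3 per cell) and 0.229 in ES cells, with 6 at 0 in both. The 8 endothelial markers summed to 28.8 and 39.7 CPM, with Pecam1, Cdh5 and Tie1 at 0. Flt1 (545 reads in 12 MEFs) and Kdr (200 reads in 4 MEFs) were on the MEF side, and Egfl7 had 326 reads in ES cells and 184 in MEFs. The 6 epithelial markers summed to 21.8 and 277 CPM. The 8 pericyte and smooth muscle markers summed to 3272 CPM in MEFs (38.6 to 13024 per cell) and 180 in ES cells. Acta2 (2092) and Tagln (988) made up most of the MEF sum. Mcam, Rgs5, Cspg4, Cnn1 and Myh11 stood at 79.8, 40.7, 37.9, 31.6 and 2.50 CPM in MEFs. Des went the other way, at 0.427 in MEFs and 2.18 in ES cells. The part of these markers in the level of Pdgfrb, a receptor known from pericytes, was not tested.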

How the data were processed

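The authors deposited raw read counts per gene, spike-in and repeat in each well, with no normalisation, per the file headers. Per the same headers the counts include reads with alternative mappings, although all reads of the 8 receptors were unique over the plate. Other columns deposited by the authors hold exon hits over the plate and transcript length. The submitters' processing notes name Bowtie. Neither a version nor a genome build is given in the sources used here. No molecular identifiers are mentioned, so read copies of 1 molecule count separately. Columns were mapped to samples by well, and 0 were left without one. Wells needed at least 10000 gene reads, which left out ES replicates 32, 44 and 46. No doublet caller was run.

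Counts were summed per type and scaled to counts-per-million (CPM), with 95% intervals (exact Poisson for sums, Clopper-Pearson for shares) in Python 3.11.15, NumPy 2.4.6 and SciPy 1.17.1. Where a group had no read, 3 reads in the group stood in as the floor. No difference was tested, since each type is 1 culture. The ratio script was tested on simulated data. The receptors and gene lists were chosen with earlier results of these data known. From each list the 3 genes with the largest ratio with 10 CPM added and at least 100 reads were named, as were the 3 genes most like each receptor read in at least 50% of MEFs. Genes outside a list's main direction were picked once values were known. Alternatives were other scalings, thinning, well minimums, parts of the plate, background subtraction and an added CPM.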

Additional observations from a re-analysis of the deposited data

Results flagged for a closer look

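In the 4 negative control wells, Igf1r had 12 reads in 1 well and 0 in the other 3, and the single well stands far from the others. How often chance marks a group of 4 wells this way was not tested. ES replicate 44, left out for having 9327 gene reads, held 4 Pdgfrb reads, whereas no negative control well had a Pdgfrb read. It also held 10 Axl reads, fewer than the 16 of the highest negative control well.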

How the results depend on the processing

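The count of receptors at least 2-fold higher in MEFs was 7 under 11 of 13 alternatives and 6 in the other 2, thinning to 20000 gene reads and 10 CPM added. The count at least 2-fold above the median gene was 5 with 10 CPM added, 6 when thinned and 7 under the other 11. No receptor changed direction under any alternative that gave a value, and Pdgfra gave none when thinned. Spike-in scaling raised the median of all genes to 6.10 on the log2 scale and each MEF-side receptor to between 8.28 and 10.2, and left Kit at -2.06. Ratios of single receptors moved by more than their plate-row SD in 41 of 103 cases. That SD is of ratios with 10 CPM added, whereas most of the ratios set against it had none added. For sparse genes the 2 scales differ, so the count of 41 is a rough guide. Apart from spike-in scaling (8.56), the log2 ratio of Axl ran from 2.61 (median-of-ratios scaling) to 5.12 (negative control reads subtracted). Of the rankings, 14 of 32 moved. Replicate numbers are not shared between cell types, so none pairs their cells, and ratios within plate rows were compared instead. Met and Pdgfra in ES cells rest on 2 and 5 reads, and Kit in MEFs on 11.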
